A study of Mus musculus with 3 samples.

Results

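A pair of retinal RNA samples, 1 labelled Otx2 KI and 1 labelled Crx KO, were set directly against each other. They are 2 of the 3 arrays of the series, chosen by genotype label, and the remaining array is wild-type and is read beside them as the reference level. All 3 samples are whole mouse retina at postnatal day 12, with no treatment named, dissected in the same way and labelled with the dye Cy3 for 1-colour Agilent expression arrays. KI is short for knock-in and KO for knockout. The labels give neither the locus that carries Otx2, nor zygosity, nor the part of Crx that was removed, nor how many animals a sample holds. From knowledge of the study and not from the labels, the Otx2 KI allele is understood to place Otx2 at the Crx locus in place of Crx. On that understanding both mutants lack normal Crx, and the comparison sets a retina with Otx2 at that locus against one without it. With 1 array per genotype, a difference cannot be assigned to the Otx2 at that locus.

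Crx and Otx2 are related homeodomain transcription factors that bind much the same DNA motif. Otx2 acts early, in the commitment of progenitors to photoreceptor and bipolar fates, and Crx acts later to raise the genes of the light response and of the outer segment, the stack of membranes in which light is detected. In a rod, light leads to activation of the G protein transducin, transducin activates a phosphodiesterase, and the fall in cyclic GMP closes a channel. Guanylate cyclases and their calcium sensors then restore the cyclic GMP. Cones use the same chain with their own gene copies.

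The binding motif shared by both factors was looked for first, because it is the sequence through which either factor could act. The letters searched were TAATCC on both strands, so that a site on the lower strand reads GGATTA, in the 250 bases before each RefSeq transcription start (GRCm38.p6). Of all 32851 promoters in the RefSeq table, 6.25% held the motif. Promoters were found for 81 of the 109 genes in the photoreceptor lists described below, and 29 of their 107 promoters held it (27.1%). Among promoters of all measured genes, 868 of 15888 held the motif (5.46%). For genes that read at least 2-fold lower in Otx2 KI, 8 of 93 promoters held it (8.60%). For genes at least 2-fold higher, 4 of 95 did (4.21%). The lower genes with the motif include Guca1a, Gucy2e, Gucy2f and Crx of the photoreceptor lists. The share among lower genes therefore does not separate direction from list membership. The promoters below are those of every member of the photoreceptor lists that differed by 2-fold or more between the mutants and has a promoter in the table. Guca1a, Ppef2, Gucy2e, Gucy2f, Crx and Esrrb read lower in Otx2 KI, and Pde6h is the 1 member of the photoreceptor lists that read at least 2-fold higher. They run 5′ to 3′ on the gene's strand and end just before the start, with the motif in capitals.

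Guca1a, chr17:47400607-47400856, minus strand: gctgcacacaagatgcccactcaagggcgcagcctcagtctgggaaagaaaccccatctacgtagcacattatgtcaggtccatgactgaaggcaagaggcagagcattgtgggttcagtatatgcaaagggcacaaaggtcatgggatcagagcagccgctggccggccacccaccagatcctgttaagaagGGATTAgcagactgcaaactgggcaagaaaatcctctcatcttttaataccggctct
Gucy2e, chr11:69237023-69237272, minus strand: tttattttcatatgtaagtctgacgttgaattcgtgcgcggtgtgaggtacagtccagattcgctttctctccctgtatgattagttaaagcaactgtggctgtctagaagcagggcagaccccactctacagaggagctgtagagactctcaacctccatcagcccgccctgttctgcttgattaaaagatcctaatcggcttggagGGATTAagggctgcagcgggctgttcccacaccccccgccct
Gucy2f, chrX:142196937-142197186, minus strand: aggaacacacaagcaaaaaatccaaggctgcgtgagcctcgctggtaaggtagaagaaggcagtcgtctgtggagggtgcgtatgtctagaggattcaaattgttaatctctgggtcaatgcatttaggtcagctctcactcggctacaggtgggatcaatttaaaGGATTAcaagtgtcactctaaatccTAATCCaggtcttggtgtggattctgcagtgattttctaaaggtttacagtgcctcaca
Ppef2, chr5:92256279-92256528, minus strand: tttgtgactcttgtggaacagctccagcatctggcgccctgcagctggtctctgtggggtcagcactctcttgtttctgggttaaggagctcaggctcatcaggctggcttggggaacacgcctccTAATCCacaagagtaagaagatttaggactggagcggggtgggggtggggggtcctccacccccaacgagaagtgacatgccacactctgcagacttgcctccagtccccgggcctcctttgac
Crx, chr7:15879956-15880205, minus strand: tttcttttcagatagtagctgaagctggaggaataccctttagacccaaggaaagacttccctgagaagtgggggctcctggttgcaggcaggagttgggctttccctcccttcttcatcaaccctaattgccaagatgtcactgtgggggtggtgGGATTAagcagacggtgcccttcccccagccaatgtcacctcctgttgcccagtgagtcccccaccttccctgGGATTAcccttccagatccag
Esrrb, chr12:86360867-86361116, plus strand: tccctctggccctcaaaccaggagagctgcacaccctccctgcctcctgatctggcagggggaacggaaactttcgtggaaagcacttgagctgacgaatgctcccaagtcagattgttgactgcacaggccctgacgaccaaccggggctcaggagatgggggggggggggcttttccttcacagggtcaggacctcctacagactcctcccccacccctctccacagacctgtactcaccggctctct
Esrrb, chr12:86421394-86421643, plus strand: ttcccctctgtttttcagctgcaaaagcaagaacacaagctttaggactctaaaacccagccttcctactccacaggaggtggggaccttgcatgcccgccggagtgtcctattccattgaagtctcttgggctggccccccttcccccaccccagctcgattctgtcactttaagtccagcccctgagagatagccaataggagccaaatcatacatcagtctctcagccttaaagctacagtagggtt
Pde6h, chr6:136954273-136954522, plus strand: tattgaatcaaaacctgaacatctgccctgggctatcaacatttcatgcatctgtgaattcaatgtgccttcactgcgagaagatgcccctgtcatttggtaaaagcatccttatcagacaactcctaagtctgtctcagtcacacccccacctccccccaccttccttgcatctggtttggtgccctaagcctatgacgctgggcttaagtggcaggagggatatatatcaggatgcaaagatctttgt

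Counted from the start, the motif begins at base -57 in Guca1a, at -42 in Gucy2e, at -84 and -59 in Gucy2f, at -124 in Ppef2 and at -94 and -21 in Crx. These letters are absent from the Pde6h window and from both Esrrb windows. A match describes the sequence, and binding was not measured.

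Every value below is a scaled signal, the scanner's processed intensity divided by the array's 75th percentile and multiplied by that of wild-type, and is comparable between arrays for 1 gene but not between genes. The files name no genes, so probes were matched to RefSeq genes by accession, which named 21366 genes. Between 63.5% (Otx2 KI) and 67.1% (Crx KO) of the spots on an array exceeded background clearly by the scanner's flag, and 0 were saturated. A single slide and scan held all 3, so genotype cannot be told apart from a sample's position on the slide. Because each genotype has only 1 array, no difference has a replicate check or a test, the number of arrays limits the precision, and a gene is called when it differs by 2-fold or more. By the scanner's own error model a log2 difference carried a median error of 0.20, an error of measuring these RNA samples that leaves out how mice differ. Whole retina was measured, so fewer cells of a type and less RNA per cell cannot be told apart.

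The mutant retinas had nearly the same level of most genes. Of 15806 genes measured on both mutant arrays, 15597 (98.7%) lay within 2-fold of each other, and 95.2% within 1.5-fold. A difference of 2-fold or more was found at 209 genes (1.32%), with Otx2 KI higher at 107 (0.677%) and lower at 102 (0.645%). Of 13520 measured probes without a gene symbol, 84 were higher (0.621%) and 140 lower (1.04%). With another background correction, normexp, the counts were 35 and 50. Normexp was run with an offset of 50 added to every spot, which by construction shrinks the differences of dim genes. At 4-fold, 14 genes were higher and 27 lower. A further 53 genes were at least 2-fold higher and 67 at least 2-fold lower with 1 mutant array not well above background. Of the 209 called genes, 177 were dimmer than the median measured gene and 32 were brighter. Among the 2533 genes with a mean scaled signal of 5000 or more over the mutant arrays, 4 were called. Photoreceptor genes that were low in both mutants, such as Gnat1 and Pde6a, fall below this range. The median signal of the photoreceptor lists described below was 2028 in Otx2 KI and 2559 in Crx KO.

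**Figure D1:**
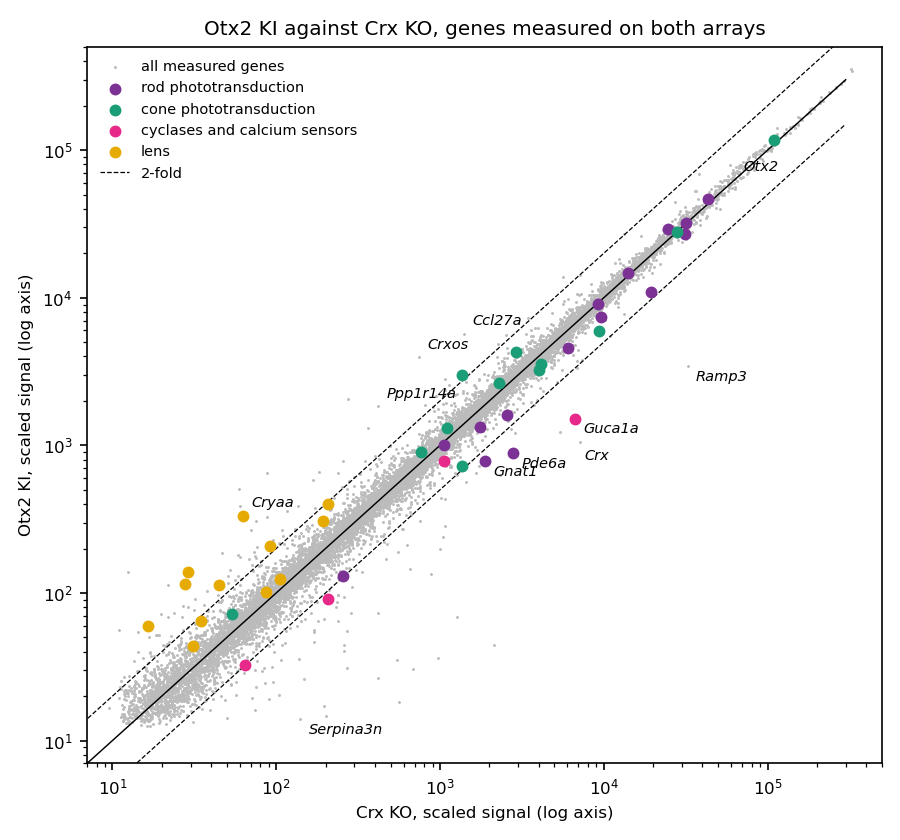
Scaled signal of each gene measured on both mutant arrays, Crx KO on the horizontal and Otx2 KI on the vertical axis, both log axes in array units, with 1 grey point per gene and 4 lists in colour. The dashed lines mark 2-fold: Pde6a, Gnat1 and Guca1a lie under them, and lens genes such as Cryaa lie above them at low signal.

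The targeted genes do not separate the mutants in a simple way. Crx read 9790 in wild-type, 7177 in the retina labelled Crx KO and 1062 in the retina labelled Otx2 KI. The Otx2 KI signal was therefore 6.76-fold under that of Crx KO (log2 difference -2.76), and the Crx KO array was the one close to wild-type. The labels do not say whether the single Crx probe lies inside the part removed in either allele, and its signal therefore checks neither label. Otx2 read 40886 in wild-type, 63860 in the Otx2 KI retina and 62981 in the Crx KO retina. Both mutants thus lay above wild-type and within 1.01-fold of each other, and whether the Otx2 probe detects a knock-in transcript is not known. Otx1, the third member of the family, was not well above background on any of the 3 arrays.

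The difference between the mutants was read over 64 genes of the light response and outer segment, in 4 lists. The lists are rod phototransduction, cone phototransduction, guanylate cyclases with their calcium sensors, and outer segment and cilium. Of the 64 genes, 61 were measured on both mutant arrays. Otx2 KI lay within 2-fold of Crx KO at 54, was lower at 6 (9.84% against 0.645% of all genes) and higher at 1 (1.64% against 0.677%). Otx2 KI was below Crx KO, by any amount, at 38 of the 61 (62.3%), where 40.3% of all genes were. The median log2 difference was -0.11, against 0.04 for all genes. Against wild-type, 38 of the 61 lay 2-fold or more lower in the Otx2 KI retina (2.53% of all genes did) and 35 in the Crx KO retina (3.43%). Those comparisons share the single wild-type array and each shares a mutant array with the direct one, so they are given side by side only.

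Where rod phototransduction genes differed between the mutants, Otx2 KI was the lower. All 16 list members were measured, and 3 were lower by 2-fold or more (18.75% against 0.645% of all genes). By that measure 0 were higher, and 12 of the 16 lay below 0, with a median of -0.39. Pde6a, a catalytic subunit of the rod phosphodiesterase, read 40311 in wild-type, 887 in the Otx2 KI retina and 2799 in the Crx KO retina, 3.15-fold lower in Otx2 KI (log2 -1.66). Gnat1, the rod transducin alpha subunit, read 96776, 781 and 1885, 2.41-fold lower (log2 -1.27). For both genes the mutants lay far below wild-type and Otx2 KI lay lowest.

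The other rod genes kept the same order over a shorter distance or did not separate the mutants. Slc24a1, the rod sodium, calcium and potassium exchanger, read 3696 in wild-type, 130.2 in the Otx2 KI retina and 256 in the Crx KO retina (log2 -0.98). Cnga1, the channel subunit opened by cyclic GMP, read 46167, 11014 and 19329 (log2 -0.81), and Rcvrn, which encodes the calcium sensor recoverin, read 105046, 1616 and 2551 (log2 -0.66). These 3 stayed within 2-fold between the mutants. Pde6b, the other catalytic subunit of the phosphodiesterase, had a log2 difference of -0.40, so the 2 catalytic subunits differed by unequal amounts. Pde6g, the inhibitory subunit, read 152810, 32123 and 31635, and the G protein-coupled receptor kinase gene Grk1 read 19190, 9074 and 9272. The log2 differences of these genes were 0.02 and -0.03, within the scanner error. The dimmer probe of Grk1 gave -0.75, so its probes disagree on whether the mutants separate. The transducin subunits Gnb1 (0.07) and Gngt1 (0.10) also lay near 0, unlike Gnat1. Cngb1, the partner subunit of Cnga1, was the rod gene with the highest difference, 0.25.

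**Figure D2:**
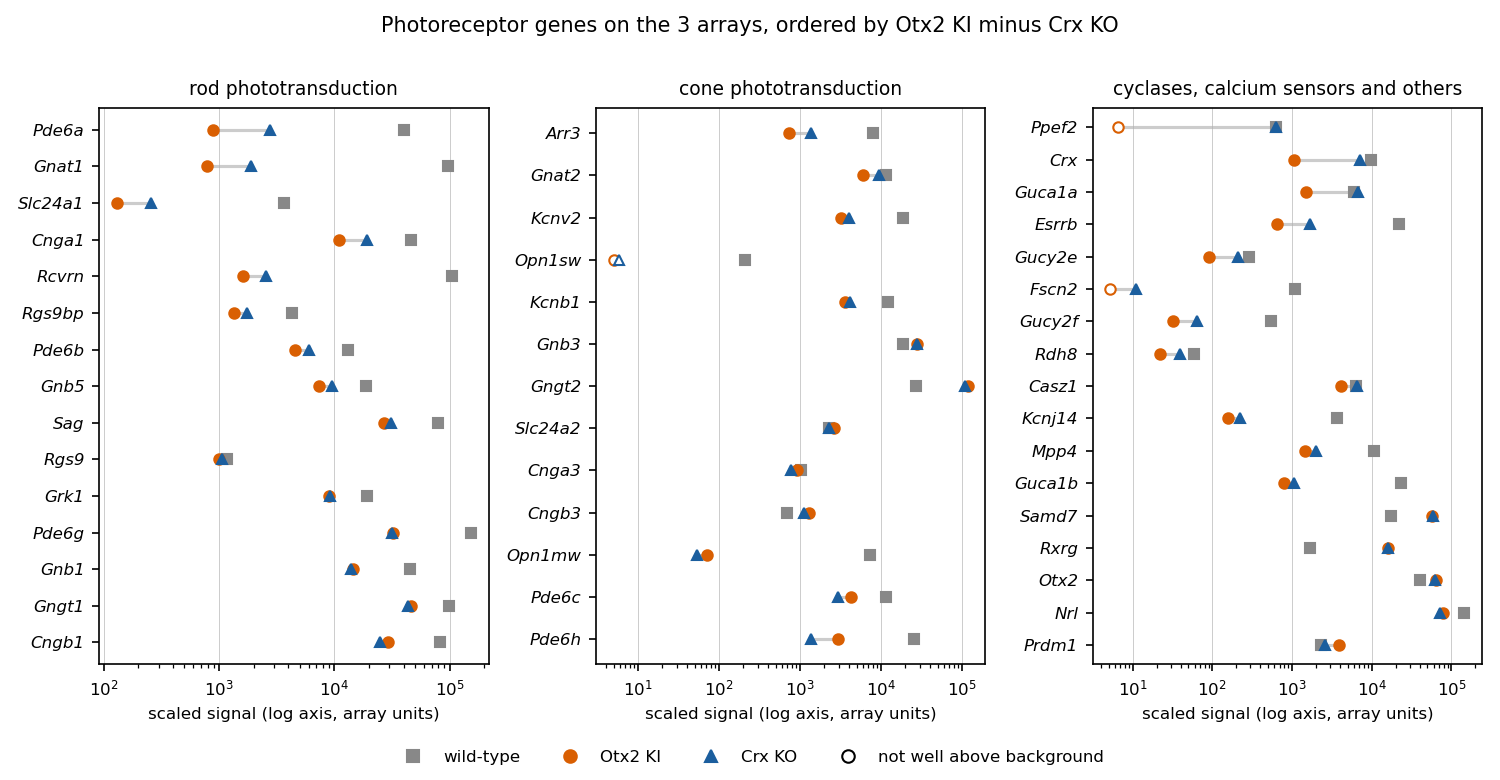
Scaled signal (horizontal log axis, array units) on all 3 arrays for 15 of the 16 rod genes, the cone list and for chosen cyclase, sensor, outer segment and regulator genes, ordered by Otx2 KI minus Crx KO. Open marks are not well above background. Pde6a has the widest gap between the mutants in the rod panel and Pde6h is the last gene of the cone panel, with Otx2 KI above Crx KO.

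Cone phototransduction genes went both ways. Of 13 list members 12 were measured, and 1 reached 2-fold higher in Otx2 KI (8.33% against 0.677% of all genes). By that measure 0 were lower, and the median was 0.15. Pde6h, the inhibitory subunit of the cone phosphodiesterase, read 25576 in wild-type, 2980 in the Otx2 KI retina and 1362 in the Crx KO retina. It was 2.19-fold higher in Otx2 KI (log2 1.13, and 1.06 on its second probe), at 11.7% of wild-type against 5.33%. Pde6c, the catalytic subunit of the same enzyme, read 11428, 4321 and 2910 (log2 0.57, and 0.98 on its second probe). Both cone phosphodiesterase genes were thus higher in Otx2 KI on every probe, and both stayed below wild-type by more than 2-fold. Arr3, cone arrestin, read 7930, 724 and 1361, and went the other way (log2 -0.91, and -0.76 on its second probe). Gnat2, the cone transducin alpha subunit, read 11578, 5991 and 9361 (log2 -0.64).

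The cone opsins stayed very low in both mutants. Opn1mw, the medium-wavelength opsin, read 7242 in wild-type, 71.7 in the Otx2 KI retina and 53.5 in the Crx KO retina (log2 0.42, and 0.19 with normexp). Opn1sw, the short-wavelength opsin, read 207 in wild-type and was not well above background in either mutant. By contrast Gngt2, the cone transducin gamma subunit, read 26795 in wild-type, 117238 in the Otx2 KI retina and 110149 in the Crx KO retina. Gnb3, the cone beta subunit, read 18902, 27820 and 27814, and the 2 mutants could not be separated (log2 0.00). Both of these genes stood above wild-type in the mutants, at nearly equal levels.

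The guanylate cyclases and their calcium sensors read lower in Otx2 KI. All 4 genes were measured, all 4 lay below 0, and the median was -1.10. At least 2-fold lower were 3 of them (75% against 0.645% of all genes). With normexp 1 of the 4 was called and the median was -0.61. Guca1a, a calcium sensor that activates the cyclases, read 5931 in wild-type, 1519 in the Otx2 KI retina and 6677 in the Crx KO retina. It was 4.40-fold lower in Otx2 KI (log2 -2.14), and the Crx KO array lay slightly above wild-type. Gucy2e, one of the photoreceptor cyclases, read 289, 91.2 and 208, 2.28-fold lower in Otx2 KI (log2 -1.19). Its other probes gave -1.08 and -0.71, and the call was lost with normexp (-0.82) and with all probes averaged (-0.99). Gucy2f, the second photoreceptor cyclase, read 545, 32.3 and 64.8 and sat at the threshold of 2-fold lower. Its call was lost with normexp (-0.40), with quantile normalization (-0.94) and with centring within bins of signal (-0.98), an alternative chosen after the data were seen. Guca1b, the second sensor, read 23222, 783 and 1051 (log2 -0.42), and its dimmer probe gave -1.46, so the probes disagree on whether it passes 2-fold.

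Most outer segment and cilium genes lay within 2-fold between the mutants, as did 98.7% of all measured genes. Of 31 members 29 were measured, 0 passed 2-fold in either direction, and the median was -0.07. Otx2 KI was the lower, by any amount, at 18 of the 29 (62.1% against 40.3% of all genes). Prph2, which encodes the disc rim protein peripherin, read 180326 in wild-type, 73106 in the Otx2 KI retina and 82606 in the Crx KO retina (log2 -0.18). Its partner Rom1 read 198681, 130655 and 137485 (log2 -0.07). Reep6, a rod membrane-trafficking protein, read 78717, 6164 and 7226 (log2 -0.23), and Abca4, the retinoid flippase of the discs, read 5447, 1650 and 1390 (log2 0.25). These genes lay below wild-type in both mutants by very different amounts, yet within 1.2-fold of each other. Differences over 0.4 in size were found at Rdh8, a retinol dehydrogenase (log2 -0.81), Kcnj14, a potassium channel (-0.53), and Mpp4, a scaffold protein of photoreceptors (-0.46), all lower in Otx2 KI.

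Ppef2, a calcium-binding phosphatase of photoreceptors, was the exception in this list. It read 628 in wild-type, 633 in Crx KO and 6.47 in Otx2 KI, too dim there to be well above background. That is at least 51.0-fold lower in Otx2 KI, taken against the lowest signal that was well above background on that array (12.4), while Crx KO and wild-type did not separate. With normexp the log2 difference was -3.14, in the same direction and smaller. Fscn2, an actin-bundling protein of photoreceptors, read 1088 in wild-type, 11.0 in Crx KO and 5.26 in Otx2 KI, and is given no fold because Otx2 KI was not well above background and Crx KO lay under that array's limit of 12.4.

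Genes of the photoreceptor synapse and the transcription regulators of photoreceptors lay within 2-fold in the 2 mutants, apart from Crx and Esrrb. So did 98.7% of all measured genes. Of 18 measured synapse genes 0 passed 2-fold and the median was -0.11. Below 0 were 14 of them (77.8% against 40.3% of all genes). Cabp4, a calcium-binding protein of the terminal, read 4086 in wild-type, 377 in the Otx2 KI retina and 477 in the Crx KO retina (log2 -0.34). The complexin Cplx4, which acts in transmitter release, read 1849, 507 and 673 (log2 -0.41), and Cplx3, another complexin, read 7384, 14545 and 15592 (log2 -0.10). Each stood on the same side of wild-type in both mutants.

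Of 20 measured regulators 2 were at least 2-fold lower in Otx2 KI, Crx itself and Esrrb (10% against 0.645% of all genes). By that measure 0 were higher, and the median was 0.01. Esrrb, an orphan nuclear receptor of rods, read 22125 in wild-type, 652 in the Otx2 KI retina and 1666 in the Crx KO retina, 2.56-fold lower in Otx2 KI (log2 -1.35). Nrl, the leucine zipper factor of rod fate, read 145234, 78190 and 71962 (log2 0.12), and Nr2e3, its nuclear receptor target, had a log2 difference of 0.18. Rxrg, a retinoid receptor of developing cones, read 1701, 15927 and 15994 (log2 -0.01), and Samd7, a Polycomb-associated protein of rods, read 17362, 57869 and 59115 (log2 -0.03). On these probes both lay far above wild-type, as high in one mutant as in the other. The other Rxrg probe read 4755, 8491 and 8017 (log2 0.08), a smaller rise over wild-type. Prdm1, the repressor that favours the photoreceptor over the bipolar fate, read 2301, 3931 and 2559 (log2 0.62). Casz1, a zinc finger factor, read 6295, 4103 and 6460 (log2 -0.65). In these 2 genes Crx KO was the array closer to wild-type, and neither passed 2-fold.

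Melatonin synthesis, a further photoreceptor function, did not separate the mutants. All 4 measured genes lay within 2-fold, as did 98.7% of all measured genes. Tph1, the first enzyme of the pathway, read 188 in wild-type, 32.9 in the Otx2 KI retina and 32.9 in the Crx KO retina. Over all 7 photoreceptor lists, 103 of 109 genes were measured and 94 lay within 2-fold. Of the 103, 8 were lower in Otx2 KI (7.77% against 0.645% of all genes) and 1 was higher (0.971% against 0.677%). On all 3 arrays, 54 of the 103 lay within 2-fold of wild-type in the Otx2 KI retina and 58 in the Crx KO retina, while of all genes 3.88% and 5.38% lay outside it.

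**Figure D3:**
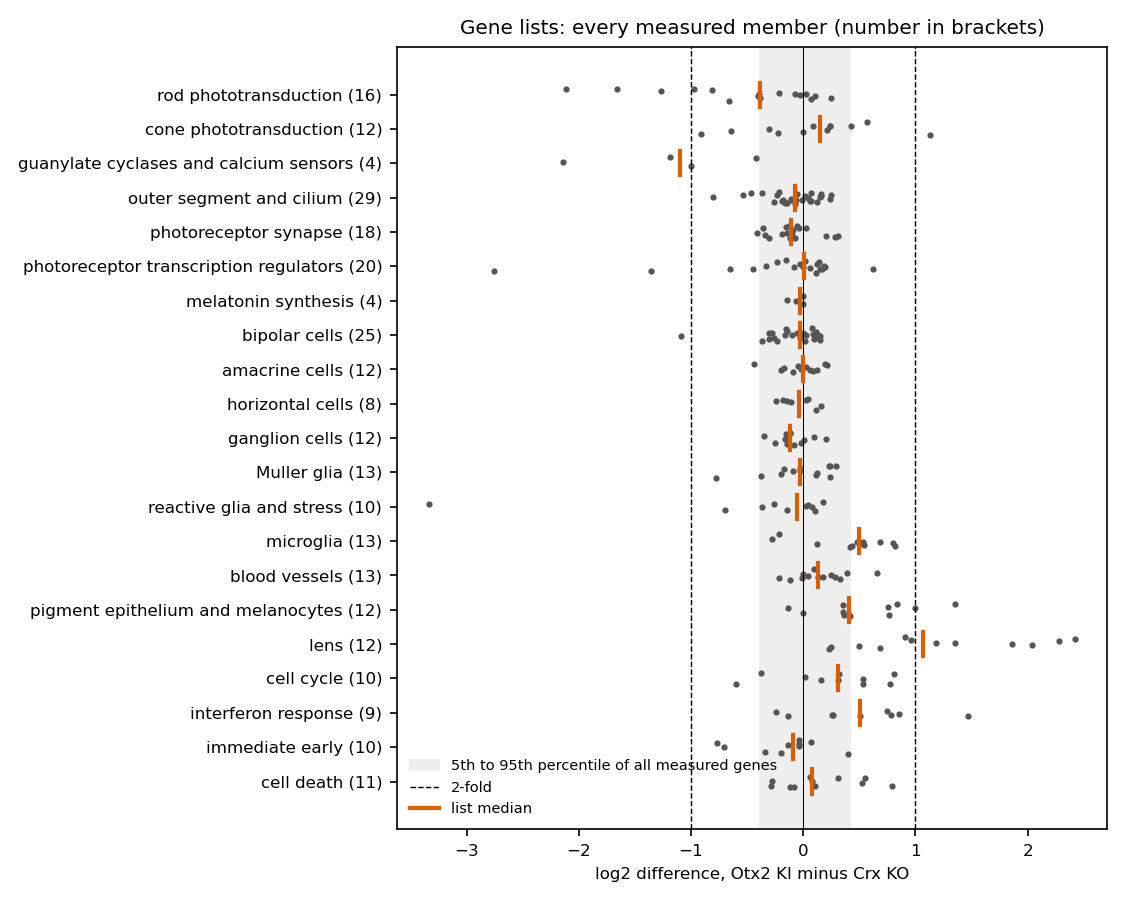
Log2 difference, Otx2 KI minus Crx KO, on the horizontal axis for every measured member of 21 gene lists, with 1 point per gene, the list median as a bar, 2-fold as dashed lines and the 5th to 95th percentile of all measured genes shaded (-0.39 to 0.42). The cyclase list lies to the left with a median of -1.10 and the lens list to the right with a median of 1.07.

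Most genes of the other neurons of the retina lay within 2-fold between the mutants, as did 98.7% of all measured genes. Of 25 bipolar genes, from the interneurons that Otx2 also specifies, 24 lay within 2-fold and the median was -0.03. Rgs11, a G protein regulator of ON-bipolar dendrites, read 4430 in wild-type, 3687 in the Otx2 KI retina and 4754 in the Crx KO retina (log2 -0.37). The 1 exception was Lrit3, which helps place the channel of ON-bipolar dendrites, at 114, 44.9 and 95.4 (log2 -1.09), and its call was lost with normexp (-0.57). Over the amacrine, horizontal and ganglion cell lists 0 of 32 measured genes passed 2-fold. In Muller glia, the supporting glia of the retina, 0 of 13 did, and the largest difference was at the potassium channel Kcnj10, which read 3041, 3257 and 5565 (log2 -0.77). Among 10 measured genes of glial reaction and stress, 9 lay within 2-fold and the median was -0.06. The exception was Serpina3n, a protease inhibitor of reactive glia, at 13.9, 13.9 and 140.3 (log2 -3.33, and -1.30 with normexp).

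Markers of tissues next to the retina also differed. Lens genes were higher in Otx2 KI: of 16 members 12 were measured, and of these 6 were higher by 2-fold or more, 12 lay above 0 and the median was 1.07. Crybb2 and Crygb were well above background in Otx2 KI only. With normexp 3 were higher and the median was 0.67. Cryaa, the alpha crystallin of the lens, read 106 in wild-type, 334 in the Otx2 KI retina and 62.5 in the Crx KO retina (log2 2.42, and 1.69 with normexp). Crygs, a gamma crystallin, read 53.8, 139.7 and 28.7 (log2 2.28, and 1.12 with normexp), and Cryge, another, read 43.3, 114.2 and 27.9 (log2 2.04, and 1.01 with normexp). Cryba1, a beta crystallin, read 28.0, 60.1 and 16.5, a call that was lost with normexp (log2 1.86 and 0.63). The summed scaled signal of the 12 measured genes was 1227, 2015 and 928, and the lens membrane genes Mip and Lim2 were not well above background in either mutant. Among 12 measured genes of pigment epithelium and melanocytes 11 lay above 0 with a median of 0.41. Their summed signal, in which brighter genes weigh more, was 26590, 14002 and 9561. Of this, Dct alone gave 10662, 5706 and 3353. Lrat, the retinoid acyltransferase of pigment epithelium, was the 1 called member, at 73.5, 34.5 and 13.5 (log2 1.35, and 0.29 with normexp), while Rpe65, the defining isomerase, read 865, 507 and 506. The part of carried-over lens or pigment tissue in any difference between the mutants was not tested.

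Most immune markers read higher in Otx2 KI by less than 2-fold. Of 13 microglia genes 11 lay above 0, with a median of 0.50 and 0 called. Tyrobp, a microglial signalling adaptor, had the largest difference (766 in Otx2 KI and 434 in Crx KO, log2 0.82), and P2ry12, a defining receptor of resting microglia, went the other way (149 and 180, log2 -0.27). Among 9 measured interferon-response genes the median was 0.51. Their median level was 97.7% of wild-type in the Otx2 KI retina and 63.8% in the Crx KO retina. Usp18, which removes the ubiquitin-like protein ISG15, read 48.9 in wild-type, 52.1 in the Otx2 KI retina and 18.8 in the Crx KO retina (log2 1.47, and 0.52 with normexp). Ifi44, another interferon-induced gene, read 28.1 in Otx2 KI and 11.0 in Crx KO, where it was not well above background. The ratio to that unclear signal was 2.57-fold (log2 0.25 with normexp). Cell cycle (0.31), blood vessel (0.13), immediate early (-0.09) and cell death (0.07) lists held 0 called members, where 1.32% of all genes were called. The cell cycle gene Top2a, a DNA topoisomerase, read 2.19-fold higher in Otx2 KI, against a Crx KO signal not well above background (log2 0.27 with normexp).

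The largest differences among brighter genes were mostly not photoreceptor genes. Ramp3, which modifies the ligand choice of the calcitonin-type receptors, read 5501 in wild-type, 3436 in the Otx2 KI retina and 32552 in the Crx KO retina, 9.47-fold lower in Otx2 KI (log2 -3.24). Ocel1, an occludin-domain gene, read 643, 634 and 2328 (log2 -1.88), and Hspa12a, a heat shock protein relative, read 600, 565 and 1434 (log2 -1.34). In these 3 genes Otx2 KI lay within 2-fold of wild-type and Crx KO stood above both. Map1b, a microtubule protein of neurites, read 1897, 1231 and 5417 (log2 -2.14), but its other probe gave 0.19, and the call was lost when probes were averaged (-0.98). Mast4, a kinase gene, passed 2-fold on its brightest probe (log2 -1.27) but not on the others (-0.43 and -0.19) or with probes averaged (-0.63).

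Among the genes higher in Otx2 KI, Crxos, which is transcribed from the opposite strand beside Crx, read 2965 in wild-type, 3947 in the Otx2 KI retina and 749 in the Crx KO retina (log2 2.40). Its other probes gave 2.27 and 0.04. Ppp1r14a, an inhibitor of a protein phosphatase, read 468, 1833 and 418 (log2 2.13), with Crx KO at the wild-type level. Ccl27a, a chemokine gene, read 5478, 5705 and 1404 (log2 2.02, and 2.07 and 2.27 on its other probes), with Otx2 KI at the wild-type level. Optc, an extracellular matrix protein of the eye, read 576, 1878 and 808 (log2 1.22), and Moxd1, a monooxygenase-like gene, read 489, 2560 and 1128 (log2 1.18). Tle1, a co-repressor, read 4958, 13870 and 5600 (log2 1.31), but its other probes gave 0.61, -0.05 and -0.05 and the call was lost when probes were averaged (0.46). The call of Pttg1, the securin gene, was lost likewise (log2 1.15, and 0.89 averaged).

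**Figure D4:**
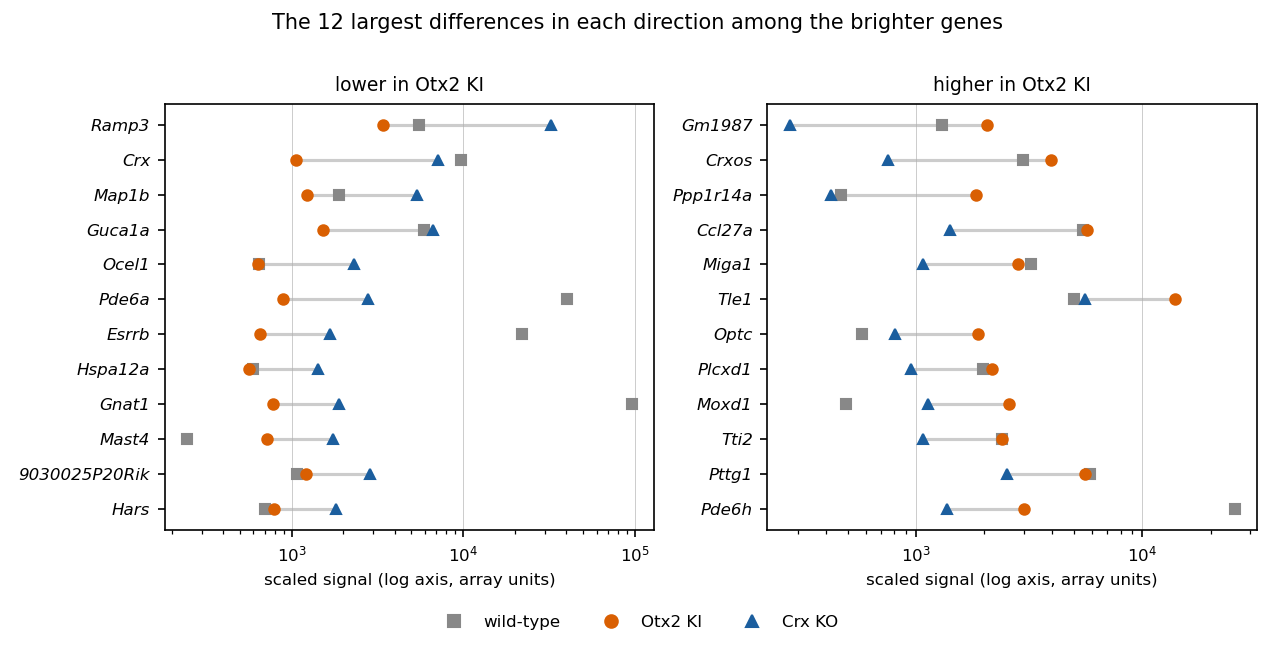
Scaled signal (horizontal log axis, array units) on each array for the 12 genes most reduced and the 12 most increased in Otx2 KI against Crx KO, among measured genes brighter than the median. The wild-type squares fall on the Otx2 KI mark for Ocel1 and Ccl27a, on the Crx KO mark for Ppp1r14a, and far above both mutants for Gnat1, Pde6a and Pde6h.

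Some genes were well above background in only 1 of the mutants. Obox6, a homeobox gene of the oocyte family, read 65.6 in wild-type, 4558 in Crx KO and 3.49 in Otx2 KI, at least 367-fold lower in Otx2 KI (log2 -6.06 with normexp). Tecta, an inner ear matrix gene, was at least 41.5-fold lower (514 in Crx KO, 2.78 in Otx2 KI, log2 -3.14 with normexp). In the other direction Zfp296, a zinc finger gene, read 96.6 in wild-type, 85.6 in the Otx2 KI retina and 8.03 in the Crx KO retina, at least 10.3-fold higher in Otx2 KI (log2 1.12 with normexp). Of these, Obox6 and Zfp296 lie on chromosome 7, as does Crx. That chromosome holds 41 of the 209 called genes (19.6%) and 1279 of the 15806 measured genes (8.09%).

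Where wild-type stood relative to the called genes was then counted, as a description only, since 1 misread mutant array would also leave wild-type near the other. Of the 107 genes higher in Otx2 KI, 104 were measured in wild-type. Wild-type was within 2-fold of Otx2 KI alone at 52 and of Crx KO alone at 21, and above both at 6. Of the 102 lower genes, 97 were measured in wild-type, which was within 2-fold of Otx2 KI alone at 65, of Crx KO alone at 7 and above both at 5. Those near Crx KO included Crx, Guca1a, Gucy2e, Lrit3, Gchfr and Rspo2, and those below wild-type in both mutants and lowest in Otx2 KI included Pde6a, Gnat1, Gucy2f and Esrrb. Gchfr and Rspo2 were named after their values were seen.

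The 6 genes that read higher in Otx2 KI and were still at least 2-fold below wild-type were Pde6h, Lrat, Ppm1n, Myo7a, Mns1 and Gpnmb, the last 4 named after their values were seen. Myo7a, an unconventional myosin of photoreceptors and pigment epithelium, read 2047 in wild-type, 579 in the Otx2 KI retina and 168 in the Crx KO retina (log2 1.79). Ppm1n, a protein phosphatase gene, read 6973, 783 and 347 (log2 1.17), and Mns1, a gene of ciliary axonemes, read 1011, 388 and 136 (log2 1.51). Gpnmb, a melanosome glycoprotein, read 175, 80.3 and 29.0 (log2 1.47, and 0.69 with normexp). In each of these genes Otx2 KI lay between Crx KO and wild-type. The summed signal of the pigment list, in which brighter genes weigh more, followed the same order. The part of pigment tissue in these genes was not tested.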

How the data were processed

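Per the file headers, the deposited scanner files hold an intensity per spot from Agilent Feature Extraction 12.0.3.1, already background-subtracted by that software, and other columns with its flags; the headers name build mm9. Control spots and outlier spots (126 in Crx KO, 132 in Otx2 KI, 136 in wild-type) were left out. Repeated spots were averaged, and log2 signals were reduced by each array's 75th percentile (570 in Crx KO, 564 in Otx2 KI, 574 in wild-type). Of 55675 probes, 28329 (50.9%) were named through RefSeq accessions (GRCm38.p6), and a gene took its brightest probe. A gene counted as measured when both mutant arrays were well above background. A gene dim on 1 array was given a bound against its own signal or the array's limit, whichever was higher (12.4 in Otx2 KI, 8.33 in Crx KO). Such a bound holds for the main scaled signal only. For the bounded genes named here, normexp gave smaller folds. The authors' deposited intensity table, the same signals times 1 constant per array, served as an alternative.

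The members and the 21 gene lists (294 genes) were chosen with earlier results of these data known. Genes named by rule were Crx, Otx2 and Otx1, members of the photoreceptor lists, the 12 largest differences per direction among genes brighter than the median, the 6 largest bounds per direction, and up to 4 members of each other list. The text prints some of them. Clone names were counted only, and some items are counted but not reported here by name. Normexp (limma 3.58.1, offset 50) used the median spot signal, the column the files hold. Other alternatives were quantile normalization, median centring, no dim-probe filter, averaged probes and other fold thresholds. Python 3.11.15 with pandas 2.3.3 was used. Only the 2-fold call was tried on simulated shifts, a check that could hardly fail, and the other steps were not tried in this way.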

Additional observations from a re-analysis of the deposited data

How the results depend on the processing

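Normexp background correction left 35 genes higher and 50 lower in Otx2 KI. Keeping dim probes at a floor gave 134 higher and 170 lower. At 1.5-fold 386 were higher and 365 lower, and at 4-fold 14 and 27. The other alternatives (quantile normalization, median centring, averaged probes, the authors' table, and centring within 20 bins of signal, chosen after the data were seen) gave 95 to 116 higher and 101 to 117 lower. The medians of the rod (-0.45 to -0.39), cone (0.05 to 0.15) and outer segment lists (-0.13 to -0.07) kept their sign. Of 35 named genes past 2-fold, 0 reversed. With normexp 6 fell within 2-fold, with averaged probes 5, and with quantile normalization and with bin centring 1 each. The normexp offset of 50 shrinks the differences of dim genes by construction, so a call lost with normexp at low signal is no independent check. Other causes were not tested. Low signal over background limits the dimmer genes: the spread of log2 differences was 0.36 under a signal of 50 and 0.11 over 5000 (robust SD). No paired analysis was possible because each genotype has 1 array and the labels carry no replicate numbers.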

Other observations

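A run of tissue kallikrein genes, which encode secreted serine proteases, stood high in Crx KO alone; it was singled out after its values were seen. Of 8 measured members of the Klk1 and Klk1b family, 6 read at least 2-fold lower in Otx2 KI and 0 read higher. Among all genes 0.645% were lower and 0.677% higher. Klk1b22 read 44.1 in wild-type, 44.3 in the Otx2 KI retina and 2125 in the Crx KO retina (log2 -5.58, and -4.32 with normexp). Klk1b3 read 48.7, 68.7 and 1263 (log2 -4.20, and -3.47 with normexp). Klk1b9 read 18.2, 23.9 and 21.0 and lay within 2-fold. These genes are near-identical copies that lie together on chromosome 7, and whether their probes share transcripts was not tested.

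The collagen gene Col16a1 read 294 in wild-type, 26926 in the Otx2 KI retina and 13241 in the Crx KO retina. The mutants were 2.03-fold apart on this probe (log2 1.02), which fell under 2-fold with normexp (0.99) and with bin centring (0.96). Its other probes gave 1.13 and 0.32, so they disagree on whether it passes 2-fold. It was also named after its values were seen.

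Among probes with no gene symbol, the largest difference was at one that read 29.2 in wild-type, 23.1 in the Otx2 KI retina and 1198 in the Crx KO retina (log2 -5.70).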
